A study of Arabidopsis thaliana with 8 samples.

Results

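The double mutant dd-2, which carries dek3-2 and dek4-2 together, was compared with the sum of its single mutants, gene by gene. The measure was the interaction on the log2(FPKM + 1) scale, that is, the effect of dek4-2 in the dek3-2 background less its effect in Col-0. FPKM count fragments relative to gene length and library size. An interaction of 0 means that the log2 changes of the single mutants add up to the dd-2 change, so that their folds multiply, and a positive value means that dd-2 lay above that sum. The test took in each gene whose mean reached 1 FPKM and whose locus spanned at least 300 bp, 18900 of 33557 genes. A further 117 genes reached 1 FPKM on a shorter locus. Just inside the level limit 405 genes had means of 1 to 1.2 FPKM, and just outside it 500 genes had means of 0.8 to 1 FPKM.

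RNA came from entire Arabidopsis thaliana seedlings, 7 days old, kept on 1/2 MS plates in long days of 16 h light at 22 °C. The 4 genotypes were wild type (Col-0), each single mutant (dek3-2, dek4-2) and their double mutant (dd-2), and every genotype had 2 libraries that the labels call biological replicates. The kind of lesion behind each allele, the number of plants per library and any backcross are not given in the labels. Each group had a single line, so an effect of the allele and of the line carrying it cannot be told apart. The study asked which genes respond to mutation of DEK3 and DEK4. DEK proteins are conserved chromatin proteins that bind DNA and histones through SAP and DEK C-terminal domains. Arabidopsis has a small family of them, and DEK3 is known to associate with histones H3 and H4 and with topoisomerase 1α and to affect nucleosome occupancy and the response to salt. Related proteins can stand in for one another, in which case a joint loss exceeds the sum of single losses, or can act on separate targets, in which case the changes add.

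The 8 libraries were alike in size, with summed FPKM from 839267 to 873796 and 18504 to 19283 genes at 1 FPKM or more. The files hold no counts, and the depth relative to the mean library, read from the spacing of low values, was lowest in the dd-2 libraries, at 0.914 and 0.798, against 0.985 to 1.13 in the other 6. In dek4-2 replicate 1, 24.8% of genes were under 0.1 FPKM, against 16.1 to 18.8% elsewhere. Chloroplast genes took 1.19 to 1.43% of the FPKM in the replicates numbered 1 and 1.79 to 1.87% in those numbered 2. All tests are limma's moderated test in 1 model of the 8 libraries, with Benjamini-Hochberg adjustment over the 18900 genes, and a gene was called at an adjusted p below 0.05. Errors given with a log2 difference of a gene are standard errors of that model. The error of a mean over a list or set of genes comes from the replicate spread of that mean, without moderation. With 2 libraries a group, the p-values measure the spread between these libraries.

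The mutated genes were read first. DEK3 (chromosome 4, 13430527 to 13435770) had 48.3 and 70.2 FPKM in Col-0, 16.7 and 13.3 in dek3-2, 47.4 and 80.7 in dek4-2 and 19.9 and 17.45 in dd-2. All 4 libraries carrying dek3-2 lay below the other 4. The dek3-2 difference of -1.90 (adjusted p = 0.406) and the dd-2 difference of -1.59 (adjusted p = 0.0672) were close in size, and the interaction of DEK3 was 0.22 ± 0.39. DEK1, DEK2 and DEK4 carry no such symbols in the reference and were taken by locus code, DEK4 as AT5G55660, so this numbering is not certain. DEK4 had 23.7 and 35.2 FPKM in Col-0, 37.95 and 27.01 in dek3-2, 10.3 and 18.4 in dek4-2 and 16.3 and 15.4 in dd-2. The 4 libraries carrying dek4-2 were the 4 lowest for DEK4. Among them dek4-2 and dd-2 overlapped, as did Col-0 and dek3-2 among the others. Its difference was -1.02 in dek4-2 (adjusted p = 1.0). In dd-2 it was -0.83 (adjusted p = 0.21), with an interaction of 0.05 ± 0.42. For both genes the interaction was smaller than its error. The relatives annotated as DEK domain-containing proteins at AT3G48710 (DEK1) and AT5G63550 (DEK2) had interactions of 0.30 ± 0.32 and 0.19 ± 0.26, also smaller than their errors.

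No gene departed from the sum of the single mutants by the adjusted test, 0 of 18900 (0.0%), and the smallest adjusted p was 0.188. At an unadjusted p below 0.05, 691 genes (3.66%) stood apart from the sum, where 945 would make up 5% of the table. Of these, 506 (2.68%) lay above the sum and 185 (0.979%) below it. With other filters, scaling or settings of limma the adjusted count ran from 0 to 3. The interval on a single gene was wide, with a median width of 0.762 on the log2 scale and a median standard error of 0.167. For 17470 genes (92.4%) the whole 95% interval lay within a 2-fold departure from the sum, and for 12013 (63.6%) within a 1.5-fold departure. The 2-fold bound limits the size of a departure but does not separate additive genes from others, since PIP1;5, given below as above its sum, also meets it. A missed threshold does not show that 2 changes add, so the interval is given beside each gene described as near its sum. The median interaction of all genes was 0.03, with quartiles of -0.08 and 0.14, and 56.7% of genes lay above 0. With median-of-ratios scaling between libraries that median was -0.06, so small departures have no settled sign.

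Against Col-0, dd-2 had 48 called genes (0.254%), of which 29 rose and 19 fell, while dek3-2 had 5 (0.0265%) and dek4-2 had 1 (0.00529%). The 3 comparisons share the Col-0 libraries. The effect of dek3-2 averaged over both dek4 backgrounds was called in 5 genes (0.0265%), and that of dek4-2 averaged over both dek3 backgrounds in 1 gene (0.00529%). The 5 genes called in dek3-2 were MRD1, HEI10, AT5G60630, AT1G76960 and PDF1.2c, those of its average effect were MRD1, HEI10, AT5G60630, AT5G39520 and PDF1.2c, and AT5G11330 was the gene of both dek4-2 counts. In dd-2 both libraries stood above the other 6 in 3244 genes (17.2%) and below them in 1383 (7.32%). The count of 48 rests on every library: leaving out 1 gave 7 or 8 calls without a Col-0 library, 30 without either dek3-2 library, 14 without either dek4-2 library, and 3 or 9 without dd-2 replicate 1 or 2. With median-of-ratios scaling 18 genes rose and 25 fell.

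The 29 genes that rose in dd-2 had mostly smaller differences in the single mutants. Their median log2 difference was 0.24 in dek3-2, 0.24 in dek4-2, 0.44 for the sum and 0.96 in dd-2, and their median interaction was 0.35, with 27 of 29 above 0. The sum of the single differences came to under 50% of the dd-2 change for 13 of them, 50 to 80% for 11, 80 to 120% for 4 and over 120% for 1. The 19 genes that fell in dd-2 had medians of -0.30 in dek3-2, -0.20 in dek4-2, -0.56 for the sum and -0.71 in dd-2, with a median interaction of -0.27 and 16 of 19 below 0. Here the sum reached under 50% of the dd-2 change for 3 genes, 50 to 80% for 10, 80 to 120% for 5 and over 120% for 1. The mean interaction was 0.44 ± 0.094 over the rises and -0.29 ± 0.034 over the falls. Calling in the same libraries favours genes with a small replicate spread, so these errors may be too small. Median replicate SDs of the falls were 0.0355 to 0.0777 across groups, against 0.0831 to 0.0944 for all genes. Those of the rises were 0.0554 to 0.125. The contrast that chose these genes is orthogonal to the interaction when groups vary alike, but both use the same libraries and genes are not independent of each other. Over the whole table, called or not, 82.1% of the 739 genes with a dd-2 difference of 0.5 to 1 had an interaction above 0, and 66.1% of the 62 genes above 1. Of the 155 genes between -1 and -0.5 it was 25.2%, and of the 22 genes below -1 it was 27.3%. At differences of 0 to 0.25 the share was 64.1% of 8933 genes as deposited and 45.3% with median-of-ratios scaling. The share above 0 was 93.1% for the rises and 15.8% for the falls, and its difference from these shares was not tested. On the FPKM scale itself, where additivity means equal amounts, 28 of 29 rises lay above the sum and 15 of 19 falls below it, and 2 of the 48 genes (AT5G60630 and AT2G43620) changed side.

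**Figure D1:**
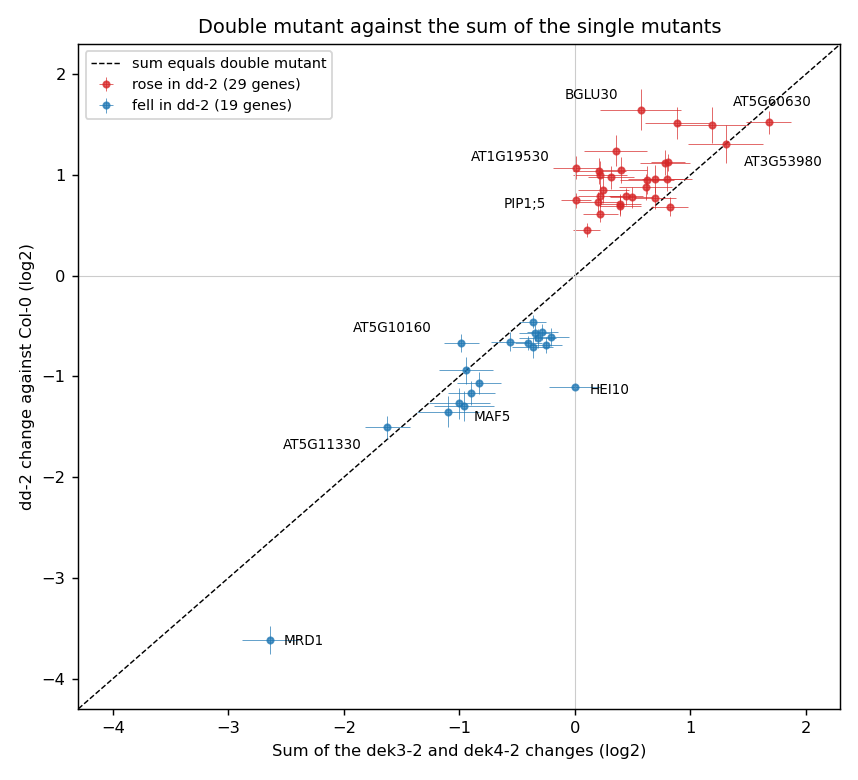
Log2 change in dd-2 against Col-0 (vertical axis) and the sum of the dek3-2 and dek4-2 log2 changes (horizontal axis) for the 48 genes called in dd-2, with standard errors as bars and the additive expectation as a dashed line. Of the 29 rises 27 lie above the line and of the 19 falls 16 lie below it, while AT3G53980 lies on it.

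PIP1;5, AT1G19530 and BGLU30 are rises that stood well above their sum. PIP1;5, a plasma membrane aquaporin (chromosome 4, 12220743 to 12222371), had 149 and 154 FPKM in Col-0, 155 and 155 in dek3-2, 149.6 and 148 in dek4-2 and 267 and 243 in dd-2. The other 6 libraries lay within a narrow band, and both dd-2 libraries stood clear above it. The single differences were 0.03 and -0.02, and the dd-2 change was 0.75 (adjusted p = 0.018). Additivity predicted 152 FPKM in dd-2, and the interaction was 0.74 ± 0.10, with a 95% interval of 0.50 to 0.98 (unadjusted p = 8.359e-05, adjusted p = 0.527). AT1G19530, annotated in the reference as a DNA polymerase epsilon catalytic subunit A (chromosome 1, 6763915 to 6764971), had 9.805 and 10.4 FPKM in Col-0, 9.49 and 7.82 in dek3-2, 12.4 and 11.5 in dek4-2 and 23.9 and 20.9 in dd-2. The single mutants lay on opposite sides of Col-0, by -0.21 and 0.22, and the dd-2 libraries lay above all others. Its dd-2 change was 1.07 (adjusted p = 0.0185), and its interaction 1.06 ± 0.16, with an interval of 0.69 to 1.44. BGLU30 (chromosome 3, 22216672 to 22220824), a β-glucosidase known as dark-inducible, had 2.13 and 2.45 FPKM in Col-0, 2.41 and 1.92 in dek3-2, 3.17 and 5.195 in dek4-2 and 10.3 and 8.35 in dd-2. The dek4-2 libraries lay above Col-0 and dek3-2, and the dd-2 libraries above all of them. The dd-2 change was 1.65 (adjusted p = 0.0248) against a sum of 0.57, and the interaction was 1.08 ± 0.28, with an interval of 0.43 to 1.73.

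Other rises also lay beyond the sum. PME16, a pectin methylesterase, had 3.62 and 3.84 FPKM in Col-0, 4.52 and 3.23 in dek3-2, 4.83 and 4.99 in dek4-2 and 11.4 and 9.11 in dd-2, a dd-2 change of 1.24 with an interaction of 0.89 ± 0.22. CKX1, a cytokinin oxidase that degrades cytokinin, had 1.44 and 1.37 FPKM in Col-0, 1.97 and 2.16 in dek3-2, 1.54 and 1.45 in dek4-2 and 3.84 and 4.102 in dd-2. Its dd-2 change was 1.05 and its interaction 0.65 ± 0.18. For both genes the dd-2 libraries lay above the other 6. GRP-5, a glycine-rich protein, had a dd-2 change of 0.98 and an interaction of 0.66 ± 0.16, with 60.7 and 58.95 FPKM in dd-2 against 27.1 to 36.6 in the other libraries. IAA17, an Aux/IAA repressor of the auxin response, rose from 46.6 and 45.6 FPKM in Col-0 to 64.6 and 62.5 in dd-2, with 47.6 and 49.6 in dek3-2 and 47.8 and 46.3 in dek4-2. Its dd-2 change was small, 0.45 (adjusted p = 0.0469), but its libraries were tight, and the interaction was 0.35 ± 0.094. Among the remaining rises, AT1G29025, an EF-hand protein, had an interaction of 0.83 ± 0.18, and AT2G44500, an O-fucosyltransferase family member, of 0.79.

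Genes outside the 48 also lay above their sum. The smallest interaction p among them was that of AT5G26270, an uncharacterized protein (chromosome 5, 9206375 to 9208136). It had 11.2 and 15.8 FPKM in Col-0, 8.73 and 11.9 in dek3-2, 6.84 and 8.75 in dek4-2 and 27.9 and 27.3 in dd-2. The dek3-2 libraries overlapped Col-0, the dek4-2 libraries lay below it and the dd-2 libraries above all others. Its single differences were -0.35 and -0.71, its dd-2 difference 1.0 (adjusted p = 0.067), and its interaction 2.06 ± 0.26 (interval 1.45 to 2.67, unadjusted p = 4.558e-05, adjusted p = 0.431). The noncoding locus AT4G04223 had 3.85 and 3.801 FPKM in Col-0, 1.27 and 1.57 in dek3-2, 1.44 and 2.44 in dek4-2 and 2.98 and 3.23 in dd-2. Its single differences were -1.0 and -0.74 and its dd-2 difference -0.23, an interaction of 1.5, so dd-2 was the mutant group nearest to Col-0.

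**Figure D2:**
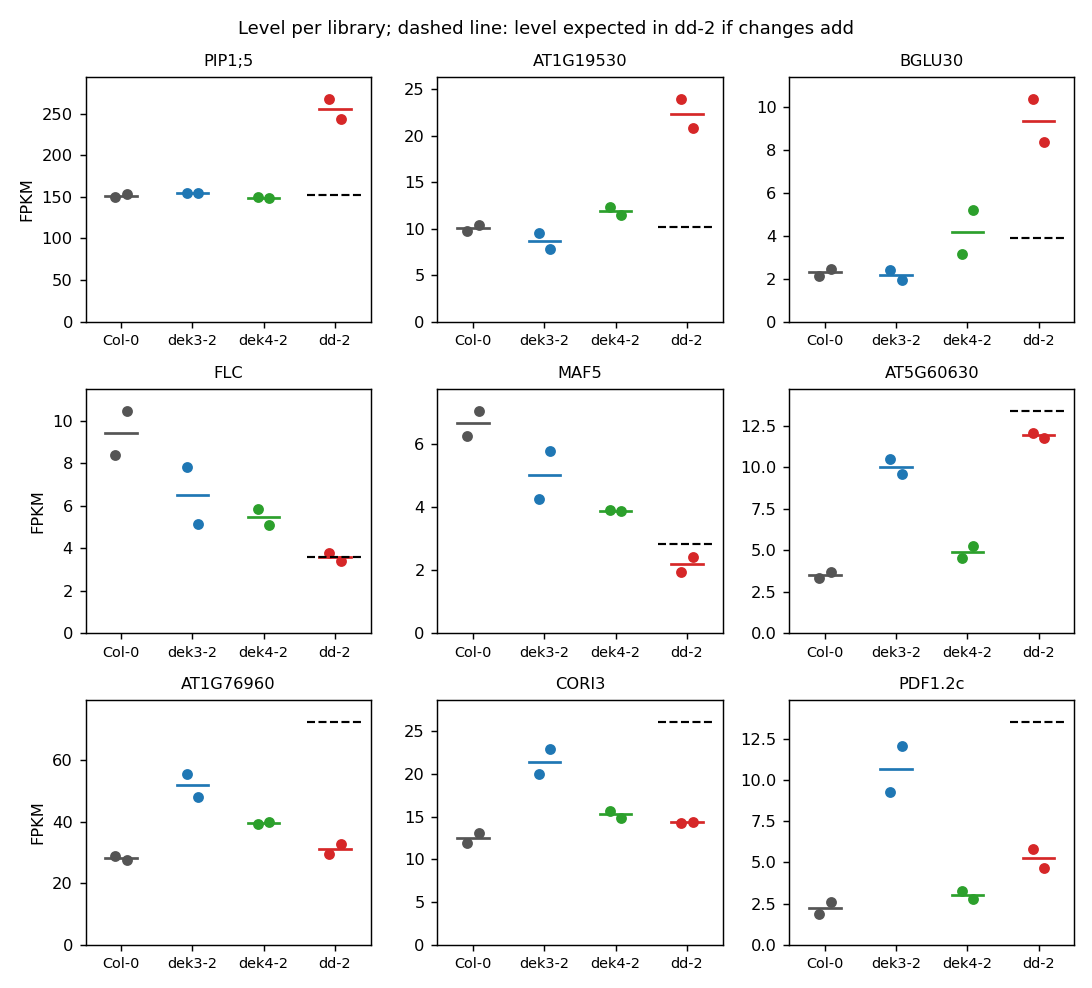
FPKM of 9 genes in each of the 8 libraries (points), with the group mean (solid line) and the dd-2 level that additive log2 changes would give (dashed line). In the top row dd-2 stands above the dashed line (PIP1;5, AT1G19530, BGLU30), and in the bottom row below it (AT1G76960, CORI3, PDF1.2c). In the middle row it is close to the line for FLC and AT5G60630. For MAF5 it is below the line, by little more than the error of the interaction.

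In several called genes the dd-2 change was close to the sum, with departures bounded within 2-fold. AT3G53980 and PVA14 were picked because their interactions were among the smallest of the called genes within that bound. Their nearness to the sum therefore follows from the choice, and 92.4% of all genes met the same bound. AT3G53980, of the lipid-transfer and 2S albumin superfamily, had 11.7 and 10.3 FPKM in Col-0, 20.4 and 14.2 in dek3-2, 16.6 and 20.6 in dek4-2 and 25.1 and 32.5 in dd-2. Both single mutants lay above Col-0 and dd-2 above both. The single differences of 0.60 and 0.71 summed to 1.3 against a dd-2 change of 1.31 (adjusted p = 0.0469), and the interaction was 0.003 ± 0.27 (interval -0.61 to 0.61). PVA14, a vesicle-associated protein, was its counterpart among the falls, with 8.198 and 7.28 FPKM in Col-0, 4.63 and 5.44 in dek3-2, 5.07 and 6.13 in dek4-2 and 3.73 and 3.38 in dd-2. Every mutant library lay below Col-0, and the dd-2 libraries were the lowest. Its single differences of -0.54 and -0.41 and its dd-2 change of -0.94 left an interaction of 0.004 ± 0.19 (interval -0.43 to 0.44).

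Other genes close to the sum moved mainly in 1 single mutant and had a like change in dd-2. AT5G60630, an uncharacterized protein, had 3.33 and 3.67 FPKM in Col-0, 10.5 and 9.601 in dek3-2, 4.51 and 5.25 in dek4-2 and 12.1 and 11.8 in dd-2. It rose by 1.29 in dek3-2 (adjusted p = 0.0193). Its rise in dd-2 was 1.52 (adjusted p = 0.003), with 0.38 in dek4-2 and an interaction of -0.16 ± 0.16 (interval -0.52 to 0.21). AT5G11330, an FAD/NAD(P)-binding oxidoreductase family protein, had 66.9 and 68.6 FPKM in Col-0, 71.4 and 67.5 in dek3-2, 19.2 and 22.4 in dek4-2 and 25.9 and 20.9 in dd-2. It fell by 1.66 in dek4-2 (adjusted p = 0.00476). It also fell by 1.5 in dd-2 (adjusted p = 0.003), with 0.03 in dek3-2 and an interaction of 0.12 ± 0.16 (interval -0.24 to 0.48). The larger change of AT5G60630 thus went with dek3-2 and that of AT5G11330 with dek4-2, whichever allele was present at the other gene. For AT5G60630 both dek4-2 libraries also lay above Col-0, and both dd-2 libraries above dek3-2. AT5G60630 and AT5G11330 were called in the matching average effects (1.22, adjusted p = 0.0013, and -1.60, adjusted p = 0.000375).

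FLC and its relatives, which are MADS-box repressors of the floral transition, had interactions of either sign, and that of FLC was near 0. FLC (chromosome 5, 3173497 to 3179448) had 8.39 and 10.4 FPKM in Col-0, 7.83 and 5.15 in dek3-2, 5.83 and 5.099 in dek4-2 and 3.78 and 3.38 in dd-2. All 6 mutant libraries lay below both Col-0 libraries, and dd-2 was lowest. The single differences of -0.49 and -0.68 summed to -1.18, and the dd-2 difference, which did not pass, was also -1.18 (adjusted p = 0.0561). The interaction of FLC was -0.003 ± 0.26, with an interval of -0.60 to 0.59. MAF5 (chromosome 5, 25997504 to 26002465) had 6.25 and 7.04 FPKM in Col-0, 4.27 and 5.78 in dek3-2, 3.89 and 3.88 in dek4-2 and 1.94 and 2.42 in dd-2. The groups did not overlap, with Col-0 highest, then dek3-2, then dek4-2, and dd-2 lowest. MAF5 fell by 1.27 in dd-2 (adjusted p = 0.0248) against a sum of -1.0, and its interaction was -0.27 ± 0.22 (interval -0.77 to 0.23). MAF4, beside MAF5 in the genome, had a sum of -0.54, a dd-2 difference of -0.79 (adjusted p = 0.0617) and an interaction of -0.25 ± 0.20. MAF2 and MAF3, in the same gene cluster, and FLM had interactions of 0.27, 0.40 and -0.03. Over the 6 members the median interaction was -0.02 and the mean 0.02 ± 0.11, and the median took either sign with 1 library left out, from -0.12 without dek3-2 replicate 2 to 0.17 without dek3-2 replicate 1. All 6 intervals lay within 2-fold of the sum and 1 of 6 within 1.5-fold, against 92.4 and 63.6% of all genes. The 26 tested regulators of FLC, among them chromatin modifiers, had a median interaction of 0.04, which was -0.05 with median-of-ratios scaling, and 23 of 26 intervals lay within 1.5-fold of the sum, against 63.6% of all genes.

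In a few genes dd-2 lay below the sum and nearer to Col-0 than dek3-2 did. AT1G76960, an uncharacterized protein with the smallest interaction p of the table (chromosome 1, 28920457 to 28920956), had 28.8 and 27.5 FPKM in Col-0, 55.6 and 48.03 in dek3-2, 39.2 and 39.9 in dek4-2 and 29.4 and 32.6 in dd-2. Both single mutants lay above Col-0, and dd-2 was only just above it. AT1G76960 rose by 0.85 in dek3-2 (adjusted p = 0.044), with 0.48 in dek4-2 and 0.13 in dd-2. Additivity predicted 72.3 FPKM, and the interaction was -1.20 ± 0.13 (interval -1.49 to -0.90, unadjusted p = 9.964e-06, adjusted p = 0.188). CORI3, a jasmonate-induced aminotransferase, had 11.9 and 13.1 FPKM in Col-0, 19.97 and 22.9 in dek3-2, 15.7 and 14.8 in dek4-2 and 14.2 and 14.4 in dd-2. The dek3-2 libraries were the highest, and dek4-2 and dd-2 lay close to each other. The single differences of 0.73 and 0.27 faced a dd-2 difference of 0.18, an interaction of -0.82 ± 0.13 (unadjusted p = 0.000232). PDF1.2c, a defensin, had 1.86 and 2.597 FPKM in Col-0, 9.24 and 12.1 in dek3-2, 3.25 and 2.81 in dek4-2 and 5.82 and 4.67 in dd-2. It rose by 1.85 in dek3-2 (adjusted p = 0.0249), with 0.32 in dek4-2, 0.95 in dd-2 and an interaction of -1.22 ± 0.25. Near-identical copies of this defensin exist, and how reads were shared among them is not given. GSTF6 and GSTF7, glutathione transferases of the defence response, had interactions of -0.60 and -0.67.

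MRD1 and HEI10 lay below the sum with single differences of opposite sign. They share 1 merged locus of 3 genes in the files (chromosome 1, 19963047 to 19969757), so their values are uncertain. MRD1 had 15.97 and 14.3 FPKM in Col-0, 0.261 and 0.297 in dek3-2, 32.7 and 30.2 in dek4-2 and 0.1803 and 0.464 in dd-2. It was near 0 in all 4 libraries carrying dek3-2 and highest in dek4-2. MRD1 fell by 3.65 in dek3-2 (adjusted p = 4.436e-05). The fall by 3.61 in dd-2 was alike (adjusted p = 4.856e-05), with 1.01 in dek4-2 and an interaction of -0.97 ± 0.20. HEI10, a factor of meiotic crossover formation, had 2.58 and 2.58 FPKM in Col-0, 0.6400 and 0.552 in dek3-2, 7.38 and 6.74 in dek4-2 and 0.713 and 0.626 in dd-2. HEI10 fell by 1.17 in dek3-2 and by 1.1 in dd-2, with 1.17 in dek4-2 (adjusted p = 0.121), and its interaction was -1.1 ± 0.18.

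MRD1 and HEI10 lay below the sum although neither fell further in dd-2 than in dek3-2. Other falls beyond the sum had smaller interactions than these genes. CRL2, an NAD(P)-binding protein of the Rossmann-fold superfamily, had 18.23 and 18.6 FPKM in Col-0, 17.2 and 16.2 in dek3-2, 16.8 and 17.1 in dek4-2 and 11.2 and 10.9 in dd-2. It fell by 0.69 in dd-2, of which the sum gave 36.0%, with an interaction of -0.44 ± 0.11. TIC32, of the chloroplast protein import machinery, had 43.2 and 44.6 FPKM in Col-0, 37.01 and 34.8 in dek3-2, 40.6 and 40.01 in dek4-2 and 27.4 and 26.96 in dd-2. It fell by 0.67, with an interaction of -0.27 ± 0.097. In both genes the dd-2 libraries lay below all others. AT5G10160 stood on the other side, with a sum of -0.99 larger than its fall of 0.67 and an interaction of 0.32 ± 0.12.

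Function was read from 34 gene lists, 427 of whose 471 genes were tested. Each list is described by its counts and medians with no test. The lists were chosen with earlier results of these data known. Their counts beside the shares of all genes are therefore descriptive and not independent evidence. Over all genes 56.7% of interactions lay above 0 with a median of 0.03. Lists with median interactions of 0.24 to 0.59 held genes of root hairs, endodermis, the chloroplast genome, auxin response, carbon starvation, aquaporins and ER bodies. Abscisic acid, phosphate, nitrate, photosystem, FLC clade and chromatin lists had medians of 0.09, -0.02, -0.02, -0.03, -0.02 and 0.07. With median-of-ratios scaling these were -0.001, -0.11, -0.11, -0.13, -0.10 and -0.02. Cold response, heat shock, endoplasmic reticulum folding, ferritin, cytokinin and glucosinolate lists had medians of -0.33, -0.29, -0.28, -0.24, -0.24 and -0.18. The heat shock and cytokinin medians changed sign with 1 library left out, to 0.09 without dek3-2 replicate 2 and to 0.15 without dek4-2 replicate 1. Those of cold response, folding and ferritin went to -0.04 without dek3-2 replicate 2, to -0.02 without dek4-2 replicate 2 and to -0.09 without dd-2 replicate 1.

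**Figure D3:**
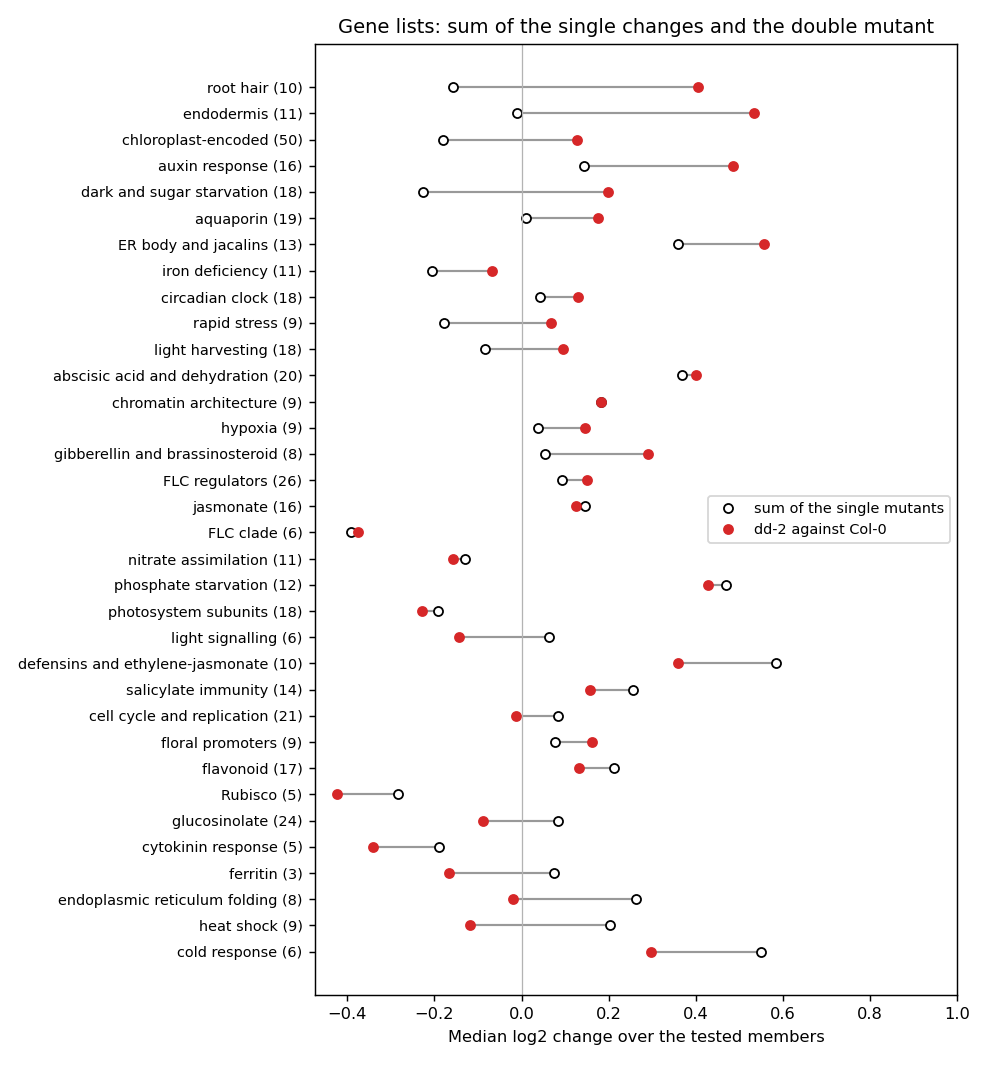
Median log2 change over the tested members of each gene list (number in parentheses) for the sum of the single mutants (open) and for dd-2 against Col-0 (filled), ordered by median interaction. The endodermis list goes from -0.01 to 0.53 and the dark and sugar starvation list from -0.23 to 0.20, while the FLC clade stays at -0.39 and -0.37; the seed storage list is left out of the plot.

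Genes of darkness and sugar starvation are normally repressed by sugar and light and serve amino acid and cell wall breakdown. All 18 tested members had an interaction above 0, with a median of 0.33 that ran from 0.27 to 0.38 with 1 library left out and was 0.24 with median-of-ratios scaling. Their median was -0.23 for the sum and 0.20 in dd-2, and 9 of 18 had both dd-2 libraries above the other 6, against 17.2% of all genes. The mean level of the list, relative to Col-0, was -0.21 and -0.18 in dek3-2, about 0 in both dek4-2 libraries, and 0.25 and 0.22 in dd-2, so the dek3-2 libraries lay below Col-0 and dd-2 above it. The mean interaction was 0.44 ± 0.10, and 7 members had an unadjusted p below 0.05, all above the sum, against 2.68% of all genes. THA1, a threonine aldolase, had 23.8 and 29.6 FPKM in Col-0, 20.5 and 21.2 in dek3-2, 27.8 and 26.04 in dek4-2 and 38.5 and 35.3 in dd-2, an interaction of 0.77 ± 0.15. ASN1, the dark-induced asparagine synthetase, had 30.9 and 45.7 FPKM in Col-0, 25.8 and 31.1 in dek3-2, 43.9 and 32.98 in dek4-2 and 53.8 and 58.5 in dd-2, an interaction of 0.94 ± 0.28. Both genes were highest in dd-2, and dek3-2 was lowest for THA1 and overlapped Col-0 for ASN1. DIN1, TPS8, BCAT2 and GDH2, of senescence, trehalose signalling, branched-chain amino acid and glutamate metabolism, had interactions of 0.57, 0.37, 0.53 and 0.32. BGLU30, described above, was the member called in dd-2.

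Aquaporins, which carry water across the plasma membrane (PIP) and the vacuolar membrane (TIP), had 15 of 19 interactions above 0 and a median of 0.29. That median fell to 0.13 without dek3-2 replicate 1. Of the 19, 11 had both dd-2 libraries above the other 6, against 17.2% of all genes, and 7 had an unadjusted p below 0.05 with dd-2 above the sum, against 2.68%. PIP1;1 had 112 and 104 FPKM in Col-0, 108 and 112 in dek3-2, 106 and 102 in dek4-2 and 136 and 137 in dd-2, an interaction of 0.36 ± 0.10. PIP2;2 had 151 and 121 FPKM in Col-0, 145 and 136 in dek3-2, 140.2 and 130.4 in dek4-2 and 208 and 190.2 in dd-2, an interaction of 0.50 ± 0.16. TIP2;3 was low, with 6.46 and 5.75 FPKM in dd-2 against 1.51 to 3.45 in the other libraries, and had an interaction of 0.85 ± 0.29. In each of these 3 genes the dd-2 libraries lay above the other 6. The single-mutant libraries lay close to Col-0 for PIP1;1 and PIP2;2, while the other 6 libraries of TIP2;3 were scattered for their level. TIP1;2, PIP1;3 and TIP2;1 had interactions of 0.46, 0.36 and 0.63. PIP2;8 stood on the other side at -0.46 ± 0.26.

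The auxin response list held early targets of the SAUR, GH3 and Aux/IAA families. Of 16 members 15 had an interaction above 0, with a median of 0.34 that was 0.22 without dek3-2 replicate 2, and 10 had both dd-2 libraries above the other 6, against 17.2% of all genes. The median was 0.14 for the sum and 0.48 in dd-2, and the mean interaction was 0.31 ± 0.17. SAUR20, a promoter of cell elongation, had 5.67 and 5.99 FPKM in Col-0, 5.47 and 4.73 in dek3-2, 7.95 and 6.64 in dek4-2 and 8.64 and 9.400 in dd-2, an interaction of 0.44 ± 0.17. SAUR23 had 2.22 and 1.46 FPKM in Col-0, 1.29 and 1.303 in dek3-2, 2.77 and 3.19 in dek4-2 and 4.04 and 3.596 in dd-2, an interaction of 0.57 ± 0.23. In both SAUR genes dek3-2 lay below Col-0, dek4-2 above it and dd-2 highest. GH3.6, an enzyme that conjugates auxin to amino acids, had an interaction of 0.35 ± 0.14. SAUR19 to SAUR24 are near-identical neighbours whose reads cannot be assigned with confidence.

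Promoters of the auxin and abscisic acid lists are shown because the list medians differed, at 0.34 and 0.09. They are the 250 bases before the gene start in RefSeq on TAIR10.1, read 5′ to 3′ on the gene's strand, and 18798 of the tested genes had one. The auxin response motif TGTCTC, on either strand, was present in 8 of 16 auxin list promoters (50%) and in 10.6% of all. SAUR20 (chr5:5966786-5967035, minus strand) and SAUR22 (chr5:5975088-5975337, minus strand) are given with this motif in capitals. The letters around the motif are the same in both of these neighbouring genes, so the 8 promoters are not independent occurrences.
SAUR20: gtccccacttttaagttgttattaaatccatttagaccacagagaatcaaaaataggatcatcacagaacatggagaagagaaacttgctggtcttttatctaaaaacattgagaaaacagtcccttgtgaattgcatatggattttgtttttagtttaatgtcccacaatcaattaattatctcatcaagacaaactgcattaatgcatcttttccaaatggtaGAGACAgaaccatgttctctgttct
SAUR22: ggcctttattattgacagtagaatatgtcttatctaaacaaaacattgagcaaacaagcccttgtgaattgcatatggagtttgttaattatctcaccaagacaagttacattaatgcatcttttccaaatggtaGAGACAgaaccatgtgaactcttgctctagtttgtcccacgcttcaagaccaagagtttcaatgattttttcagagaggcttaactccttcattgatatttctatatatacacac
The core of the abscisic acid response element, ACGTG on either strand, was present in 11 of 20 promoters of the abscisic acid list (55.0%) and in 23.7% of all. RAB18 (chr5:26519448-26519697, minus strand) and PP2CA (chr3:3585851-3586100, minus strand) are given with it in capitals.
RAB18: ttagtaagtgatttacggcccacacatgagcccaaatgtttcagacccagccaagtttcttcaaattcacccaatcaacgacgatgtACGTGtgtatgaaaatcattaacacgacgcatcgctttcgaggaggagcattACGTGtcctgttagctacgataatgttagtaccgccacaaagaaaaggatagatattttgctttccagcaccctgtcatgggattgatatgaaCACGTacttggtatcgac
PP2CA: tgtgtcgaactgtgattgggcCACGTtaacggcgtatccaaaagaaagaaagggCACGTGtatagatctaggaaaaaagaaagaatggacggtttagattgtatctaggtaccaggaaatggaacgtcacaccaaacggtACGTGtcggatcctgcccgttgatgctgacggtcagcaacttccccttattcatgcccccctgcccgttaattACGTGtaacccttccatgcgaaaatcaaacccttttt
In the 29 rises and 19 falls the shares were 10.3 and 10.5% for TGTCTC and 24.1 and 21.1% for ACGTG. The starvation, endodermis and aquaporin lists had median interactions of 0.33, 0.40 and 0.29. Their shares were 11.1, 9.09 and 0.0% for TGTCTC and 38.9, 27.3 and 5.26% for ACGTG. A link between motif and interaction was not tested. A match describes these letters in the window and is not a bound site. SAUR20 lay above its sum as given above, SAUR22 had an interaction of 0.66 ± 0.38, RAB18 of -0.29 ± 0.14 and PP2CA of 0.13 ± 0.13. The RAB18 estimate, the lowest of its list, lay below the sum by more than its error, and that of PP2CA was within its error.

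The ER body and jacalin list covers the myrosinase system of root and seedling ER bodies and its lectins. Of 13 members 11 had an interaction above 0, with a median of 0.24 (0.38 without dd-2 replicate 2, 0.15 with median-of-ratios scaling). The median was 0.36 for the sum and 0.56 in dd-2. There 3 of 13 members rose, all of them jacalins, against 29 of 18900 genes in the whole table. JAL31 had 13.9 and 14.8 FPKM in Col-0, a mean of 17.1 ± 0.76 (SD, n = 2) in dek3-2, 16.4 and 16.98 in dek4-2 and 26.7 and 24.3 in dd-2, rising by 0.79 with an interaction of 0.35 ± 0.12. JAL34 had 119.7 and 105 FPKM in Col-0, 120.1 and 117 in dek3-2, 112 and 118 in dek4-2 and 163 and 156 in dd-2, an interaction of 0.39 ± 0.12. JAL31 was already above Col-0 in each single mutant, whereas JAL34 overlapped it there. JAL35 and JAL22 also rose in dd-2, with interactions of 0.32 and 0.26.

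Every tested marker of the root cell types had an interaction above 0, but the root hair list had a wide error. In the endodermis list, which holds genes of the Casparian strip and suberin barriers, 11 of 11 members had an interaction above 0, with a median of 0.40 (0.62 without Col-0 replicate 2) and a mean of 0.48 ± 0.17. The level of the endodermis list relative to Col-0 was 0.04 and 0.18 in dek3-2, -0.12 and -0.13 in dek4-2, and 0.54 and 0.38 in dd-2, against 0.13 and -0.13 in the Col-0 libraries. PER64, a peroxidase of Casparian strip lignification, had 3.45 and 2.89 FPKM in Col-0, 2.79 and 3.21 in dek3-2, 2.76 and 2.81 in dek4-2 and 6.22 and 5.903 in dd-2, a dd-2 difference of 0.76 (adjusted p = 0.0575) with an interaction of 0.96 ± 0.18. CASP1, a Casparian strip scaffold, had 11.4 and 9.97 FPKM in dd-2 against 4.94 to 7.34 in the other 6 libraries, an interaction of 0.57 ± 0.26. In the root hair list 10 of 10 lay above 0 with a median of 0.59, which was 0.18 without Col-0 replicate 1 and 0.93 without Col-0 replicate 2. The root hair mean was 0.52 ± 0.41. An unadjusted p below 0.05 was found in 0 of 10 members, against 3.66% of all genes, a count near that share. The root hair levels overlapped, with 0.35 and -0.35 in Col-0 and 0.33 and 0.51 in dd-2. The shoot marker lists went different ways. Rubisco genes had 0 of 5 interactions above 0 with a mean of -0.15 ± 0.14 and all 5 intervals within 1.5-fold. Their median of -0.15 was -0.04 without Col-0 replicate 2, -0.05 without dek4-2 replicate 1 and -0.25 without dek4-2 replicate 2. They had a level of -0.43 and -0.42 in dd-2 against -0.04 to -0.23 in the single mutants. Light harvesting genes had 14 of 18 above 0, a mean of 0.15 ± 0.11 and a median of 0.09, which was -0.005 with median-of-ratios scaling. In 2 of 18 the unadjusted p was below 0.05, both above the sum, against 2.68% of all genes. In whole seedlings more cells of a type and more RNA per cell cannot be told apart. Aquaporin, ER body, auxin and starvation genes are also expressed in roots, and the part of the root and shoot markers in those results was not tested.

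**Figure D4:**
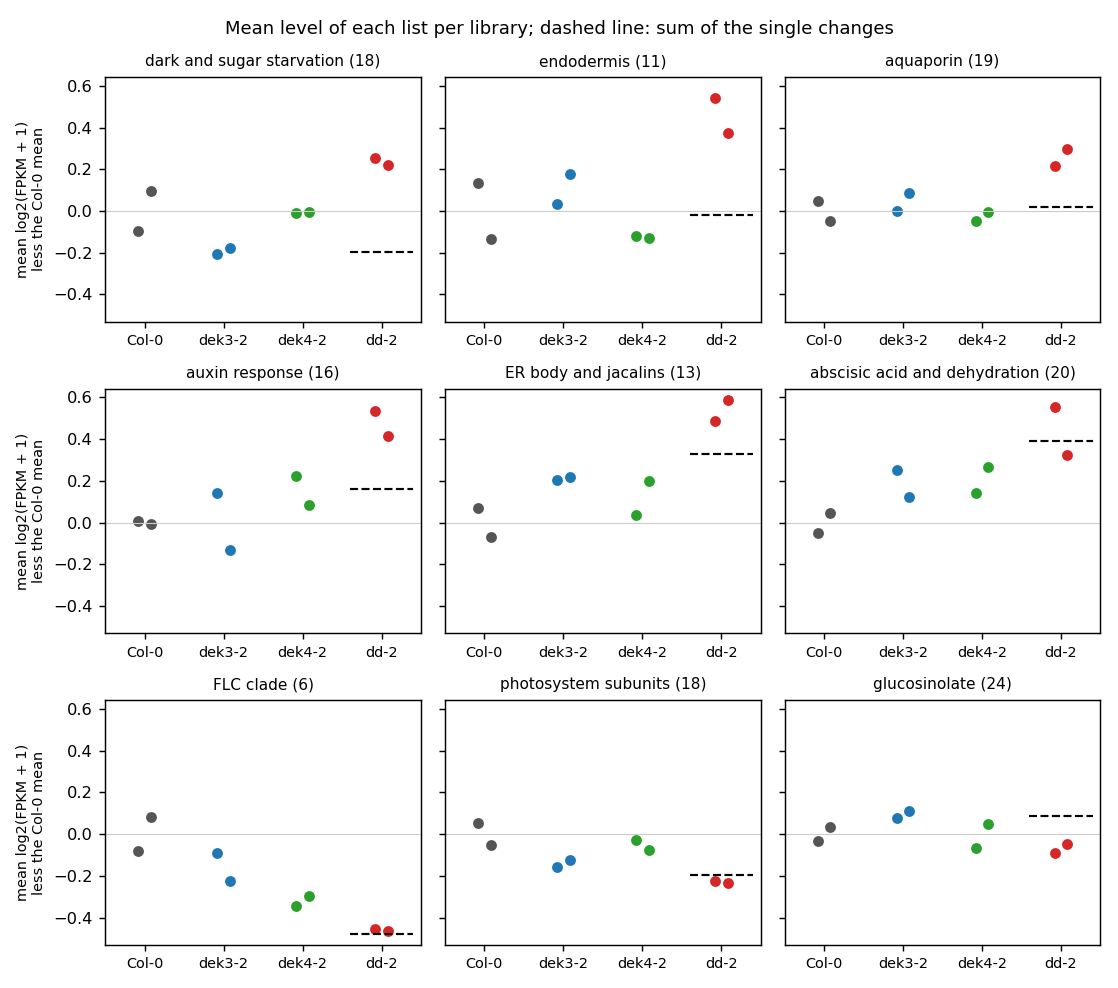
Mean log2(FPKM + 1) of the tested members of 9 gene lists in each library, less the Col-0 mean; the dashed line marks the sum of the single changes. In the starvation, endodermis, aquaporin, auxin and ER body lists both dd-2 libraries lie above the dashed line, in the abscisic acid list they lie on both sides of it, and in the glucosinolate list both lie below it.

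Some lists had medians apart from 0 in both single mutants. Abscisic acid and dehydration genes had a median of 0.16 in dek3-2, 0.19 in dek4-2, 0.37 for the sum and 0.40 in dd-2. Of the 20 members 13 had an interaction above 0, and the median of 0.09 was -0.001 with median-of-ratios scaling. No member had an unadjusted p below 0.05, against 3.66% of all genes, a count near that share. The interval lay within 2-fold for 19 of 20 and within 1.5-fold for 8 of 20, against 92.4 and 63.6% of all genes, so the departure of most members is less tightly bounded than that of most genes. HIS1-3, a drought-induced linker histone and the member that rose in dd-2, had 49.2 and 48.8 FPKM in Col-0, 68.9 and 56.6 in dek3-2, 67.5 and 65.9 in dek4-2 and 121 and 95.8 in dd-2. All single-mutant libraries lay above Col-0 and below dd-2, and its interaction was 0.34 ± 0.18. COR47, a dehydrin, had 151 and 171 FPKM in Col-0, 179 and 182 in dek3-2, 179.7 and 198 in dek4-2 and 268 and 227 in dd-2, in the same order, with an interaction of 0.22 ± 0.15. NCED3, the enzyme of abscisic acid synthesis induced by drought, had a sum of 0.97, a dd-2 difference of 0.84 and an interaction of -0.12 ± 0.24. Phosphate starvation genes had a median of 0.47 for the sum and 0.43 in dd-2, with 3 of 12 intervals within 1.5-fold, but the mean interaction of -0.01 had a standard error of 0.34 and the median depended on the Col-0 libraries, being 0.26 without replicate 1 and -0.30 without replicate 2 of Col-0.

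Nuclear photosystem subunits had narrow intervals, all within 1.5-fold of the sum. Their median was -0.19 for the sum and -0.23 in dd-2, and the interaction had a median of -0.03 and a mean of -0.04 ± 0.06. The interaction lay below 0 in 16 of 18, and its median was -0.13 with median-of-ratios scaling. All 18 intervals lay within 1.5-fold, against 63.6% of all genes. In 11 of 18 both dd-2 libraries stood below the other 6, against 7.32% of all genes, although none was called. PSBO2, of the oxygen-evolving complex, had 915 and 797 FPKM in Col-0, 687 and 726 in dek3-2, 787 and 708 in dek4-2 and 594 and 587 in dd-2. Its libraries descended from Col-0 through the single mutants to dd-2, with dek3-2 and dek4-2 overlapping, and the interaction was -0.06 ± 0.14. Nitrate assimilation genes had a median of -0.13 for the sum and -0.16 in dd-2, with 9 of 11 intervals within 1.5-fold. The 9 tested genes of chromatin architecture had 0.18 for both, with 7 of 9 intervals within 1.5-fold.

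Glucosinolate genes, which make sulphur-rich defence compounds, lay mostly below the sum. Of 24 members 18 had a negative interaction, with a median of -0.18 that was -0.11 without dek4-2 replicate 2 and -0.27 with median-of-ratios scaling. The mean was -0.15 ± 0.07, and 4 members had an unadjusted p below 0.05, all below the sum, against 0.979% of all genes. CYP79F1, the first enzyme of methionine-derived glucosinolate synthesis, had 21.1 and 21.02 FPKM in Col-0, 27.02 and 28.5 in dek3-2, 19.04 and 24.6 in dek4-2 and 17.9 and 17.2 in dd-2, an interaction of -0.67 ± 0.16. The dek3-2 libraries were the highest and the dd-2 libraries the lowest. CYP83A1 and SOT18, later enzymes of the pathway, and CYP79B2, of the tryptophan branch, had interactions of -0.41, -0.40 and -0.47. Genes of protein folding in the endoplasmic reticulum had 0 of 8 above 0, with a median of 0.26 for the sum and -0.02 in dd-2, but a mean interaction of -0.27 ± 0.30. FT, the mobile flowering signal, had an interaction of -0.52 ± 0.19.

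The remaining lists had medians within 0.15 of 0 or rested on few members. Circadian clock genes had 15 of 18 interactions above 0 with a median of 0.12, which was 0.035 with median-of-ratios scaling, and 9 of 18 had both dd-2 libraries above the other 6, against 17.2% of all genes. Iron deficiency, rapid stress, hypoxia and gibberellin or brassinosteroid genes had medians of 0.13, 0.10, 0.06 and 0.06. The last 2 of these were -0.02 and -0.03 with median-of-ratios scaling. Jasmonate genes had a median of 0.01 with both CORI3 and OPR3, an enzyme of jasmonate synthesis, below the sum at -0.82 and -0.28. Defensin genes had a median of -0.04, and PDF1.1 had an interaction of -1.38 ± 0.44. PDF1.1 had 0.688 and 1.07 FPKM in Col-0, 6.64 and 3.02 in dek3-2, 0.986 and 0.538 in dek4-2 and 1.34 and 0.688 in dd-2, so both dek3-2 libraries stood above the others. It reached the limit of 1 FPKM only through the dek3-2 libraries, which differed from each other. Entry by that route favours a value below the sum, so PDF1.1 adds no support to PDF1.2c. Salicylate immunity, light signalling, cell cycle, floral promoter and flavonoid genes had medians of -0.05, -0.03, -0.05, -0.07 and -0.13. Of the 21 intervals of the cell cycle list all lay within 2-fold of the sum and 7 within 1.5-fold, against 92.4 and 63.6% of all genes.

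A pair of lists varied strongly with the libraries kept. Seed storage proteins, a remnant of the seed, had 0 of 12 interactions above 0 and a median of -2.53, which was 0.44 without dek3-2 replicate 1. CRA1, a cruciferin, had 0.953 and 1.71 FPKM in Col-0, 196 and 5.15 in dek3-2, 1.27 and 1.79 in dek4-2 and 0.411 and 17.1 in dd-2, so 1 dek3-2 library and, less so, 1 dd-2 library stood apart. Its part in the other results was not tested. Chloroplast-encoded genes, of which 50 of 133 were tested, had 39 of 50 interactions above 0 and a mean of 0.40 ± 0.30. Their median of 0.39 was 0.19 without dek4-2 replicate 1 and 0.75 without dek4-2 replicate 2. No mitochondrion-encoded gene was tested.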

How the data were processed

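Transcripts of 8 libraries from 4 genotypes were sequenced. The deposited values are FPKM per gene, per the file headers, 1 file per library, on TAIR10. The submitters' processing notes name HISAT2, featureCounts and edgeR without versions, and the program that wrote the FPKM, any scaling between libraries and the use of strand are not given in the sources used here. Symbols came from RefSeq (TAIR10.1) by locus code, for 32813 of 33557 genes. The test was limma 3.58.1 on log2(FPKM + 1) (variance trend, robust) run in R 4.3.3, with 1 mean per genotype and no covariate, over the 18900 genes that averaged 1 FPKM or more on loci of at least 300 bp, with Benjamini-Hochberg adjustment and calls below 0.05. On this scale the folds of low genes are understated. Files without counts give no counting error, and depth is known only relative to the other libraries. The model was also run on simulated data, and the outcome is not reported here. Members, lists and tests were chosen with earlier results of these data known. Lists were matched by symbol (470 of 471 genes).

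Genes were named by a rule: the DEK genes, FLC, MAF4 and MAF5; 10 per direction by interaction p; 10 per direction by dd-2 change among called genes; 10 called genes with the smallest bounded interaction; and up to 3 members per list by interaction p and 3 by dd-2 change. IAA17, GRP-5, AT1G29025, AT2G44500, JAL35, CRL2, TIC32, AT5G10160, FLM, COR47, PP2CA, PIP1;3, PIP2;8, TIP1;2, TIP2;1, DIN1, TPS8 and GDH2 were chosen after their values were seen. Alternatives were median-of-ratios scaling, another pseudocount, other filters, plain limma, removal of length trends, the replicate number as a block and each library left out. Plots used matplotlib 3.10.9 under Python 3.11.15.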

Additional observations from a re-analysis of the deposited data

How the results depend on the processing

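Over 41 genes chosen for an unadjusted interaction p below 0.05, none of 689 values changed sign under the alternatives run; as none was called, staying uncalled shows no stability. Of 489 intervals of 29 further genes, 9 lost the 2-fold bound, and 28 of 590 list medians moved by more than the standard error of the list mean. The count of called interactions, 0, was 1 with no filter on low values, 3 with no filter on locus length, 2 with the replicate block and 0 to 3 with 1 library left out. The 48 calls in dd-2 became 24 with no low-value filter, 29 with plain limma, 355 with the replicate block and 3 to 30 with 1 library left out. The 5 calls in dek3-2 became 8 with no length filter, 2 with the replicate block, 3 with length trends removed and 1 to 6 with 1 library left out, and the 1 call in dek4-2 became 3 with no low-value filter, 4 with no length filter, 2 with plain limma and 1 to 3 with 1 library left out. The 5 calls of the dek3 average became 15 with median-of-ratios scaling, 8 with no low-value filter, 12 with no length filter, 11 with the replicate block, 8 with plain limma and 3 to 9 with 1 library left out. The 1 call of the dek4 average became 3 with median-of-ratios scaling, 4 with no low-value filter, 4 with no length filter, 19 with the replicate block and 1 to 4 with 1 library left out. The median interaction ran from 0.32 to 0.46 over the rises and from -0.31 to -0.24 over the falls with 1 library left out, and was -0.35 over the falls with median-of-ratios scaling. Of 808 dd-2 values 445 stayed called. The causes of these shifts were not tested. The labels tie replicates of different groups only by their number, but the chloroplast share was lower in every replicate 1 than in every replicate 2. Replicate differences of 2 groups correlated from -0.0629 to 0.402 across genes. With the replicate block AT5G26270 passed the interaction test (adjusted p = 0.0314). With 2 libraries a group, a leave-one-out fit assumes that the lone library varies like the other groups.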
